A study of Mus musculus with 8 samples.

Results

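Atp2a1, Ckm, Myh4 and Scn4a encode proteins that let a fast skeletal muscle fibre fire, contract, relax and resupply its ATP. They were 4 of the 273 genes with deposited profiles of 5-hydroxymethylcytosine (5hmC) in primary mouse myoblasts. The 4 were chosen by name for these roles from the 53 genes that the authors marked DOWN, while the other 220 genes were marked UP. The rule behind these marks is not given in the sources used here. Myoblasts, the dividing precursors of muscle fibres, were grown from hindlimb muscles in Ham's F10 medium with horse serum and basic fibroblast growth factor. CTRL cells had the genotype Pax7 +/+; Psat1fl/fl and so carried no Cre. Psat1KO cells had the genotype Pax7 CRE+/-;Psat1fl/fl, in which Cre is made from the Pax7 locus, the gene of a transcription factor of muscle stem cells. Both genotypes therefore carried floxed alleles of Psat1, which encodes a transaminase of serine synthesis, and the control differed from the knockout at Pax7 as well as in Psat1. The labels give neither the age of the animals nor whether the libraries of a genotype came from separate animals or cultures, so p-values measure only the spread between these libraries.

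5hmC is made when TET enzymes oxidise methylated cytosine, and it often accumulates in the bodies and enhancers of genes in use or poised for use in a cell lineage. Of the 4 genes, Scn4a encodes the voltage-gated sodium channel that carries the action potential along the fibre, and Myh4 the myosin heavy chain of the fastest mouse fibres, type IIb. Atp2a1 encodes the calcium pump of the sarcoplasmic reticulum that ends a contraction in fast fibres, and Ckm the muscle creatine kinase that buffers ATP. All of them are known as genes of the differentiated fibre, not of the dividing myoblast. A 5hmC signal measures a mark on DNA and not RNA, so it cannot show whether the genes were transcribed, nor check the labelled cell type.

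The 4 genes lie on 2 chromosomes. In the RefSeq annotation of GRCm38.p6, Atp2a1 occupies chr7:126445858-126463103 on the minus strand (NM_007504, 17.2 kb) and Ckm chr7:19411094-19421583 on the plus strand (NM_007710, 10.5 kb). Myh4 occupies chr11:67237812-67260447 on the plus strand (NM_010855, 22.6 kb), and Scn4a, the longest, chr11:106317545-106365559 on the minus strand (NM_133199, 48 kb). The promoter windows from RefSeq, 250 bases before to 50 after the start site, are printed because 5hmC forms mostly at CpG sites and the 4 genes differ in how many their promoters hold. The windows are chr7:126463024-126463323 (minus strand) for Atp2a1, chr7:19410844-19411143 (plus strand) for Ckm, chr11:67237562-67237861 (plus strand) for Myh4 and chr11:106349341-106349640 (minus strand) for Scn4a. Each is written 5′ to 3′ on the gene's strand, with every CpG in capitals.
Atp2a1: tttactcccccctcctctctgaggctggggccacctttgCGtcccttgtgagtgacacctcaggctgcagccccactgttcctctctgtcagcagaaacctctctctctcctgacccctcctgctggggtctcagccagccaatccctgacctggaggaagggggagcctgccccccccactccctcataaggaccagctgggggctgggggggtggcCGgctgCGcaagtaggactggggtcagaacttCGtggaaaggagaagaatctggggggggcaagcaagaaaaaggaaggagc
Ckm: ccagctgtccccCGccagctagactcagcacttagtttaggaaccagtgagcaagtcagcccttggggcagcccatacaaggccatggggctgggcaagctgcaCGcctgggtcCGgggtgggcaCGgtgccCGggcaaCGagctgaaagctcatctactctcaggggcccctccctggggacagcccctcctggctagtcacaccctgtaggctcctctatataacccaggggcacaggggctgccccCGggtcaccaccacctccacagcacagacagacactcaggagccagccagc
Myh4: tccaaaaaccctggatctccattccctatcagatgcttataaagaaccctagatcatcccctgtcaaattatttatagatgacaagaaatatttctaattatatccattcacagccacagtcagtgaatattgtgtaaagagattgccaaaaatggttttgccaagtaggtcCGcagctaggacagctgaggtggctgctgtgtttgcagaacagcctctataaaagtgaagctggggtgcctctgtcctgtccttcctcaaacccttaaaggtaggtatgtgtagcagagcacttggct
Scn4a: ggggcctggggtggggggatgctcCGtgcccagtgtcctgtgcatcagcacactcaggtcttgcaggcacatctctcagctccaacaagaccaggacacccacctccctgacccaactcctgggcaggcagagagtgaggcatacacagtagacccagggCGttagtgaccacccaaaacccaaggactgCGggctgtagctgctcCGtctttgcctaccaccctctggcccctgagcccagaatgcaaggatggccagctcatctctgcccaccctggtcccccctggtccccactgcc

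The Ckm promoter held 7 CpG sites, as many as the median of all 32851 RefSeq mouse promoters, those of Atp2a1 and Scn4a held 4 each, and that of Myh4 held 1. Only 5.43% of promoters held fewer CpG sites than Myh4, compared with 31.4% for Atp2a1 and Scn4a and 47.9% for Ckm. The E-box letters CANNTG, which read alike on both strands and are the kind of motif bound by MyoD and related factors, occurred 3 times in the Myh4 window, once each in those of Atp2a1 and Ckm, and not in that of Scn4a. At least 1 E-box occurs in 72.3% of all promoters, so its presence does not set these genes apart. The MEF2 consensus, which also reads alike on both strands, was found once in Myh4, without overlap with an E-box, and in 3.19% of all promoters. The listed start site of Scn4a lies 16169 bases inside the bounds of the gene, so its window is not at the gene's outer end. The position of the 5hmC bins on the genome is not given in the sources used here, so no bin could be placed on these bases.

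Each gene had a profile of consecutive bins, equal in number for all genes, in each of 4 libraries, deposited as 2 tables with 1 CTRL and 1 Psat1KO library each. The tables are called set 1 and set 2, and the level of a gene is the mean signal over its bins. On the reading that the signal was scaled to 1000000 reads, the libraries held 22632700 (CTRL) and 30559000 (Psat1KO) reads in set 1, and 69765600 and 69794400 in set 2. A read is used below as the signal divided by the value of 1 read in that library. Such counts are fractional in set 2. There only 72.1% (CTRL) and 73% (Psat1KO) of the bin values above 0.001 in DOWN genes were whole multiples within 1%. The 95% intervals are exact intervals on these reads and cover counting error only. Whether a read could enter more than 1 bin is not given in the sources used here. If it could, the reads are not independent and the intervals are too narrow. Signal was not corrected for input, and the input libraries were not analysed here. The median level of the DOWN genes was 0.0219 and 0.0237 in CTRL and Psat1KO of set 1, and 0.0203 and 0.0205 in set 2.

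Scn4a carried the highest level of the 4 genes in every library. Its level was 0.0494 in CTRL and 0.0538 in Psat1KO of set 1, and 0.0281 and 0.0313 in set 2, from 113, 166, 198 and 221 reads. Among the 53 DOWN genes it ranked 4 and 3 in set 1 and 10 and 8 in set 2. The sodium channel gene thus stood at 2.26 and 2.27 times the DOWN median in set 1, against 1.38 and 1.53 times in set 2. Its levels in set 1 lay above both of those in set 2, and within each set Psat1KO lay above CTRL, so the genotypes overlapped across sets.

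Myh4, the myosin gene, lay a little above the middle of the DOWN genes. Its level was 0.0297 in CTRL and 0.0311 in Psat1KO of set 1, and 0.0221 and 0.0206 in set 2, from 68, 96, 156 and 145 reads. The ranks were 18, 17, 20 and 26, and the last of these libraries, Psat1KO of set 2, was at the DOWN median. The direction between genotypes differed between the sets.

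Atp2a1, the calcium pump gene, was also in the upper part of the DOWN genes. Its level was 0.0262 (interval 0.02 to 0.0338) in CTRL and 0.0366 (0.0302 to 0.0440) in Psat1KO of set 1, and 0.0209 (0.0176 to 0.0245) and 0.0245 (0.0210 to 0.0285) in set 2. It ranked 20, 12, 24 and 16. Psat1KO was the higher library in each set, but the Psat1KO library of set 2 lay below the CTRL library of set 1, so the groups overlapped. They overlapped over all bins for each of the 4 genes, and did not for 17% of the DOWN genes.

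Ckm, the creatine kinase gene, changed its place between the sets. Its level was 0.0166 (0.0118 to 0.0228) in CTRL and 0.0123 (0.00871 to 0.0169) in Psat1KO of set 1, and 0.0228 (0.0195 to 0.0267) and 0.0264 (0.0227 to 0.0305) in set 2. It therefore ranked 41 and 49 of 53 in set 1 and 16 and 12 in set 2, a move seen in both genotypes. Ckm was the lowest of the 4 genes in set 1, and in set 2 it was second only to Scn4a in Psat1KO and in CTRL.

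**Figure D1:**
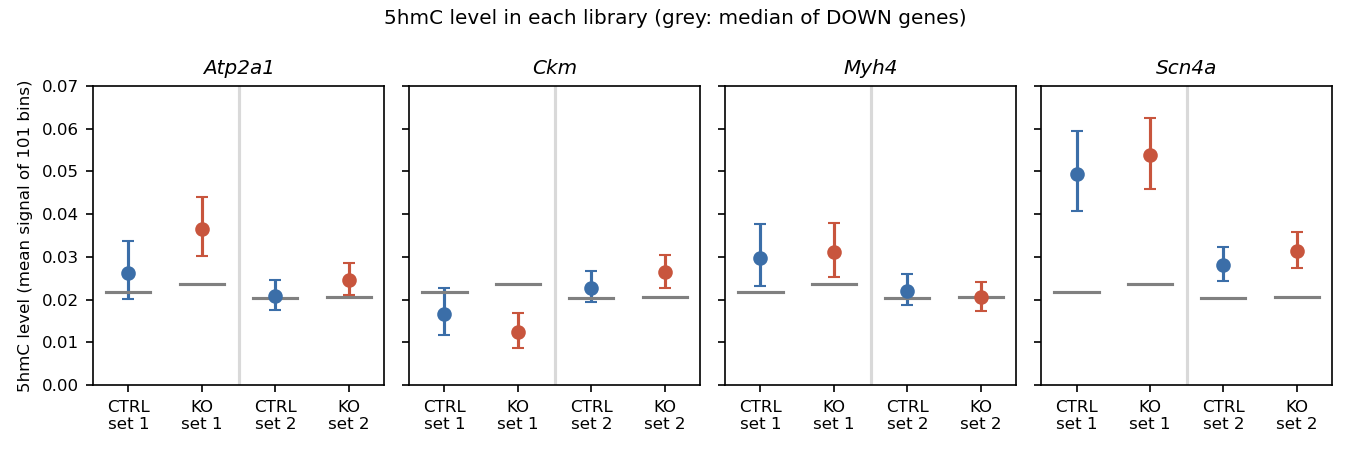
Level of each gene (mean 5hmC signal over its bins, vertical axis) in the CTRL and Psat1KO (KO) libraries of set 1 and set 2. Bars through the points are 95% Poisson intervals on reads. Scn4a runs from 0.0281 to 0.0538 and is highest throughout, and Ckm is the 1 gene of the 4 with higher levels in set 2 than in set 1.

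The profiles were then compared bin by bin. A comparison of bin positions, added after seeing the data, showed that the DOWN genes were not binned alike in the sets. The whole row of bins of set 1 matched best to the first 40% of the bins of set 2, bins 1 to 41, with a mean correlation across bins of 0.308 over 50 genes against 0.0246 for equal bin numbers. Without the 4 genes the best match was again 40% (mean correlation 0.300 against 0.0160, 46 genes). The 220 UP genes matched best bin for bin (0.563). Set 1 therefore appears to cover, for the DOWN genes, only the first part of the window of set 2, and levels over all bins are not the same quantity in the sets.

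Myh4 followed this map most closely. Over the shared bins its correlation between the sets, each averaged over its genotypes, was 0.769, the highest of 50 DOWN genes, against 0.228 for equal bin numbers. Scn4a had 0.579 (rank 6) against 0.244. The values were 0.221 (rank 35) for Atp2a1 and 0.0549 (rank 45) for Ckm, and the median of the other DOWN genes was 0.291 (range -0.167 to 0.755). These correlations across bins are descriptions, since neighbouring bins may share reads and the sets differ in depth.

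**Figure D2:**
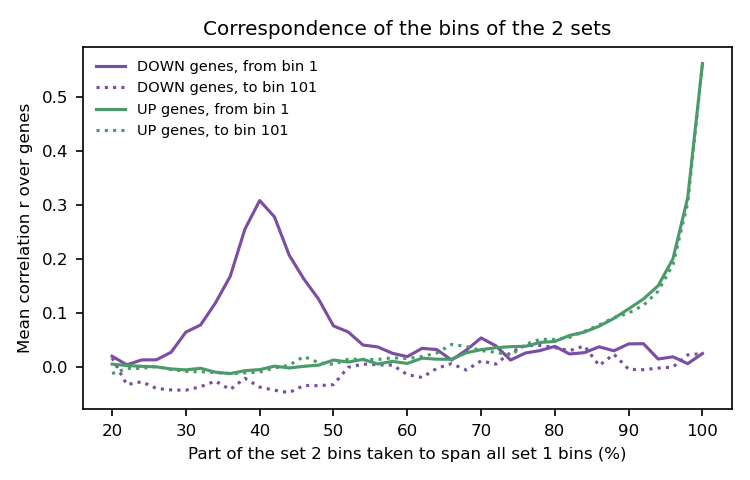
Mean correlation across bins between set 1 and set 2 (vertical axis) against the percentage of the bins of set 2, counted from the first, that the bins of set 1 are laid on (horizontal axis), for DOWN and UP genes. The DOWN genes peak at 40% (0.308) and the UP genes at 100% (0.563).

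In the shared stretch, all bins of set 1 and bins 1 to 41 of set 2, Ckm was low in every library. Its level there was 0.0166 in CTRL and 0.0123 in Psat1KO of set 1, and 0.00802 and 0.0109 in set 2. The ranks were 41, 49, 50 and 50, so the place of Ckm no longer rose in set 2. The bins of set 2 from 42 on do not appear to be covered by set 1. There Ckm had a level of 0.0329 in CTRL and 0.0369 in Psat1KO, and it ranked 5 and 4. Ckm thus had most of its signal in the later part of the window, with 14.3% (CTRL) and 16.8% (Psat1KO) of it in bins 1 to 41. That share ranked 50 of the 50 DOWN genes with signal in CTRL and 50 of 51 in Psat1KO.

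Myh4 had the opposite profile. In bins 1 to 41 of set 2 it stood at 0.0386 in CTRL and 0.0319 in Psat1KO (ranks 7 and 10), and from bin 42 on at 0.0109 and 0.0129 (ranks 47 and 44). Of its signal in set 2, 70.7% and 62.9% lay in bins 1 to 41. Scn4a was at 0.0366 and 0.0438 in those bins (ranks 10 and 3) and at 0.0223 and 0.0228 after them, and Atp2a1 was the most even, at 0.0251 and 0.0276 against 0.0180 and 0.0224. The order of the 4 genes from bin 42 on, with Ckm first and Myh4 last in both genotypes, differed from that in bins 1 to 41, where Ckm was last in both.

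**Figure D3:**
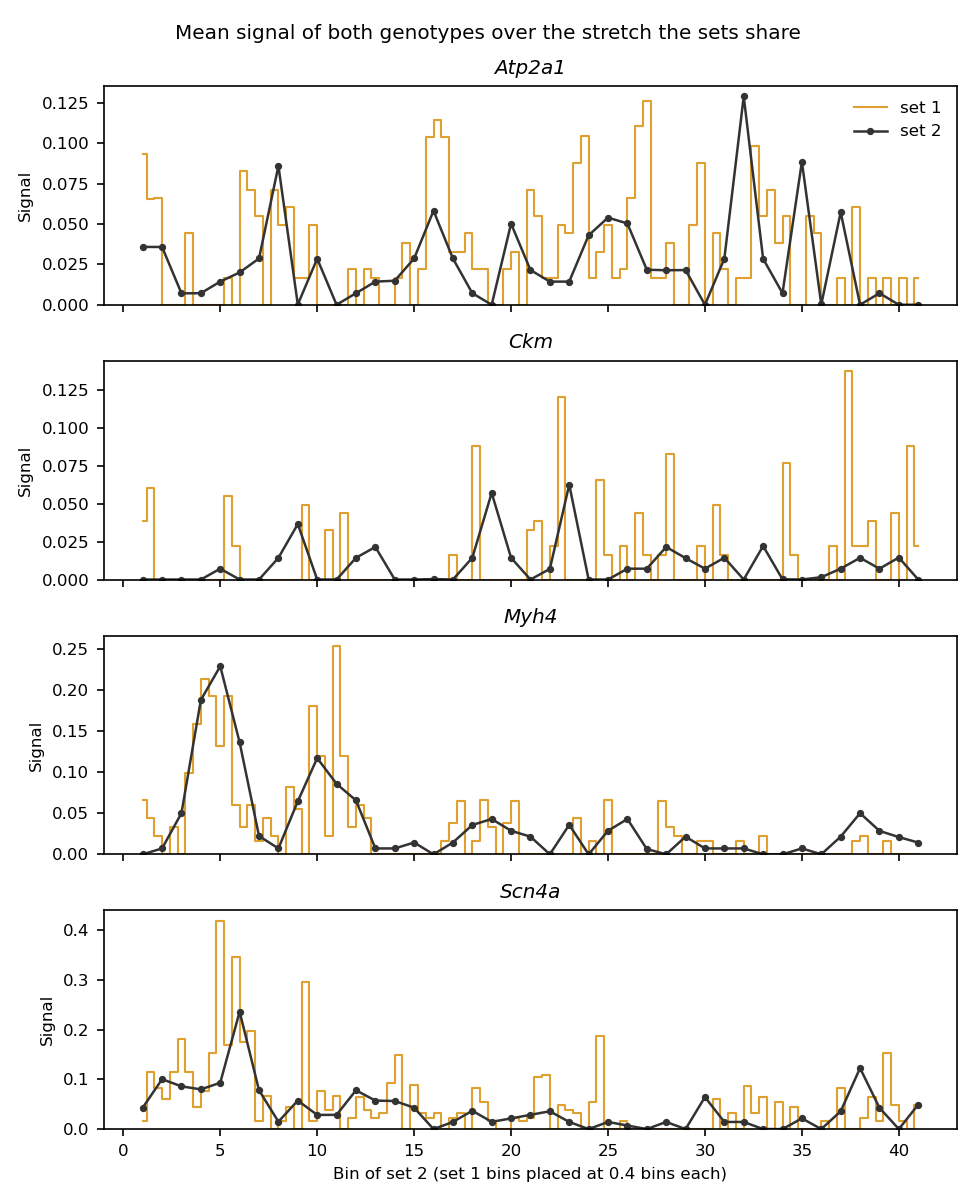
Signal of each gene in the shared stretch, averaged over CTRL and Psat1KO within each set. Set 1 and bins 1 to 41 of set 2 are laid on a common axis in bins of set 2. Myh4 rises at bins 3 to 6 and again at bins 9 to 12 in both sets, and Ckm stays low in both.

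The signal of Myh4 was concentrated at the start of its window. The first 20 bins, which are 19.8% of all bins, held 50% and 45.8% of its signal in CTRL and Psat1KO of set 1 and 59.7% and 43.8% in set 2. That was the highest share among DOWN genes in 3 libraries and the second in Psat1KO of set 2. The other DOWN genes had medians of 17.3% to 22.2% in the 4 libraries. By the match, the first 20 bins of set 1 reach only to bin 8.6 of set 2, so these shares are not of the same stretch in both sets. In set 2 the reads of Myh4 in bins 3 to 6 were 6, 18.2, 17.9 and 11 in CTRL and 0.997, 8.02, 14 and 8.01 in Psat1KO. A second, lower rise at bins 9 to 12 held 25.9 and 20.5 reads in CTRL and Psat1KO. The matching bins of set 1 showed both rises, with 23 and 37 reads in bins 5 to 14 and 19 and 31 reads in bins 20 to 29. In CTRL of set 1, 10 of those 19 reads lay in bin 26, the highest bin of Myh4 there (14.7% of its signal), while bins 25 and 27 had 1 read each and Psat1KO had 2 reads in bin 26. Bin 26 matches bin 11 of set 2, with 8.96 reads in CTRL and 3.01 in Psat1KO. Over the first rise the ratio of Psat1KO to CTRL was 1.19 in set 1 and 0.585 in set 2, and over the second 1.21 and 0.792, so the genotypes had no common direction in either. These stretches were chosen after the profiles were seen.

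Scn4a was also high at its start. Bins 1 to 20 held 48.7% and 44% of its signal in set 1 and 36.6% and 41% in set 2, in CTRL and Psat1KO. That placed Scn4a between rank 2 and rank 6 of the DOWN genes. As for Myh4, bins 1 to 20 appear to be a different stretch in each set. The highest bin of Scn4a in set 2 was bin 6 in both genotypes, with 14.9 and 18.1 reads. In set 1 the highest bins were bin 11 in CTRL, with 16 reads, and bin 13 in Psat1KO, with 13 reads, which match bins 5 and 5.8 of set 2. In CTRL of set 1 that bin held 14.2% of the whole signal of Scn4a, at 0.707, while its neighbours, bins 10 and 12, had 1 read each. Over bins 1 to 7 of set 2 the reads were 45.8 and 54.1, and over the matching bins 1 to 17 of set 1 they were 53 and 72. The ratio of Psat1KO to CTRL in this stretch was 1.01 in set 1 and 1.18 in set 2.

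Ckm rose in the later bins of set 2. In bins 57 to 59 it had 5.47, 8.81 and 10.0 reads in CTRL and 6.61, 10.1 and 9 in Psat1KO. Its highest bin was bin 71 in both genotypes, with 19.9 and 20.4 reads, or 12.4% and 11% of its signal. The next highest differed between the genotypes. Bin 70 had 14 reads in CTRL and 6.99 in Psat1KO, and bin 90 had 4 in CTRL and 14.4 in Psat1KO. All of these bins lie outside the bins that set 1 appears to cover. In set 1, where 79 (CTRL) and 81 (Psat1KO) of the bins of Ckm were at 0, the highest bins in CTRL were bins 44, 92 and 100 with 4 reads each, or 10.5% of the signal each. In Psat1KO of set 1 the highest was bin 55 with 6 reads, or 15.8%.

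The highest bins of Atp2a1 differed among the 4 libraries. The highest was bin 65 and bin 39 in CTRL and Psat1KO of set 1, and bin 80 and bin 32 in set 2, with 5, 7, 8.05 and 14 reads. None of its 5 highest bins was shared by the genotypes in either set, and the median of the other DOWN genes in set 2 was 2 shared bins. In Psat1KO of set 1 bins 38 to 40 of Atp2a1 held 5, 7 and 5 reads, against 1, 0 and 1 in CTRL. Over bins 35 to 42, chosen for this difference, Psat1KO had 22 reads and CTRL 4. In the matching bins 15 to 17 of set 2 the signal of Psat1KO was 2.26 times that of CTRL, from 11.2 and 4.94 reads. The profiles of both sets had been seen when this stretch was chosen, so set 2 is not an independent check.

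**Figure D4:**
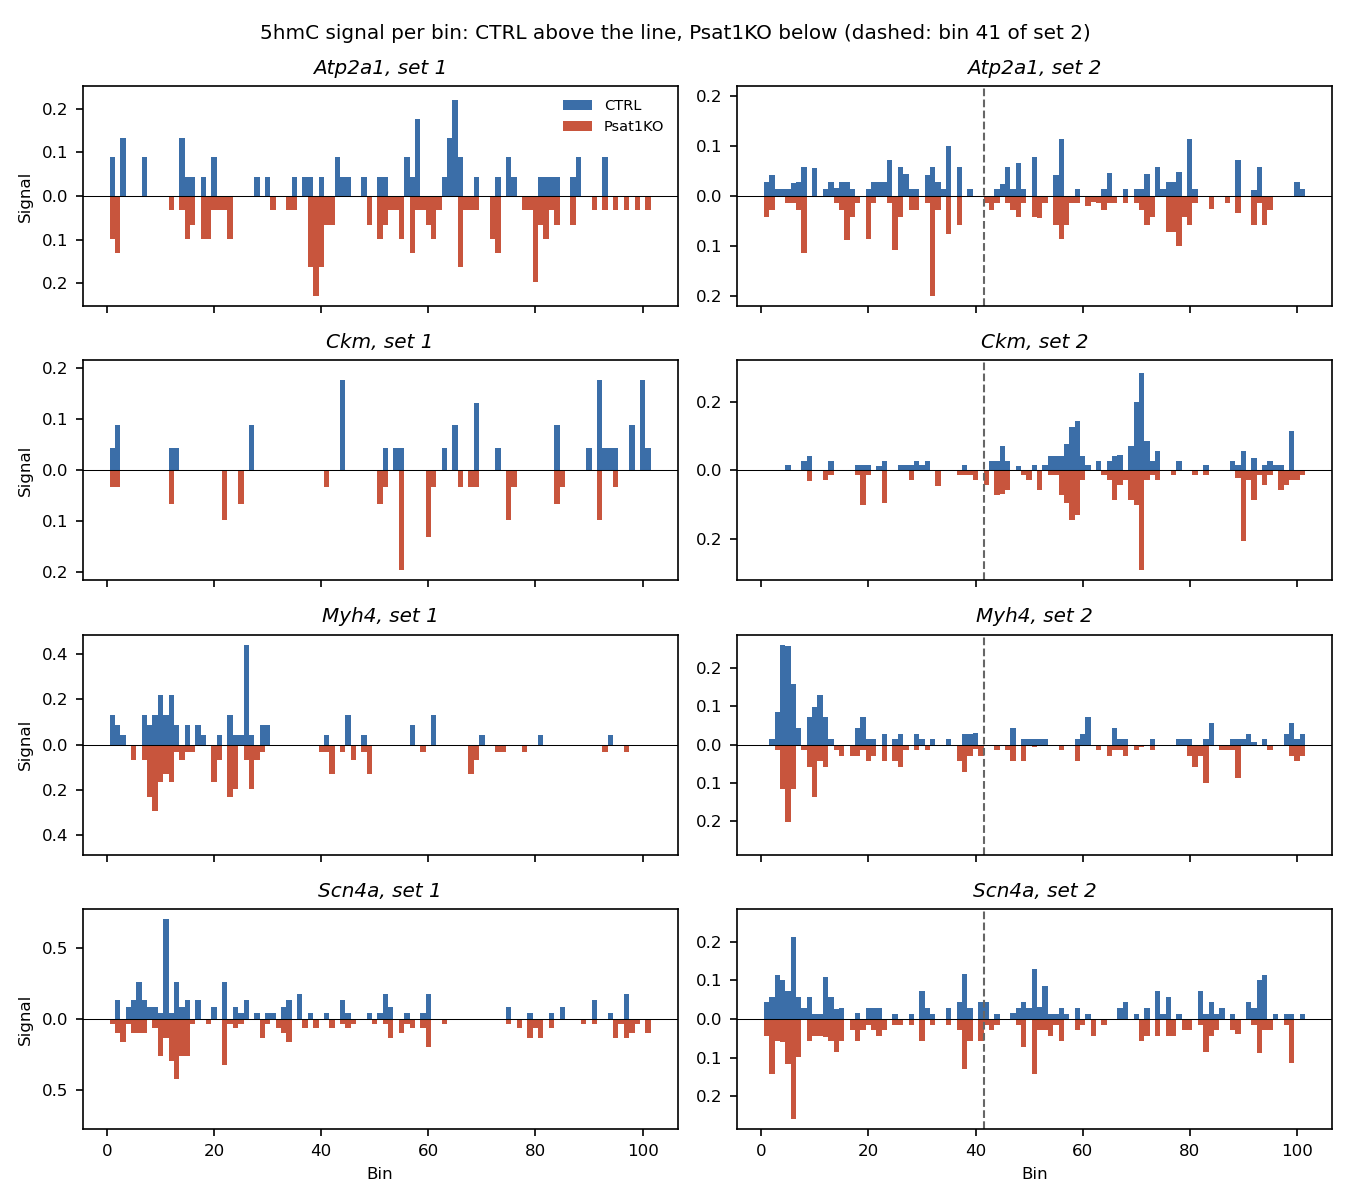
Signal in each bin (horizontal axis, bin number) of the 4 genes in set 1 and set 2, for CTRL and Psat1KO. Bins of equal number do not appear to be the same place in the 2 sets. Scn4a is highest within the first 20 bins in all 4 libraries, Myh4 in 3 of them (bin 26 in CTRL of set 1), and Ckm in set 2 at bin 71.

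Profiles of the genotypes in a set were more alike for Scn4a than for most DOWN genes. Spearman's correlation across all bins between CTRL and Psat1KO was 0.398 in set 1 and 0.511 in set 2 for Scn4a, higher than in 43 and 32 of the other 46 DOWN genes compared. It was 0.358 and 0.410 for Myh4, 0.280 and 0.474 for Ckm, and 0.112 and 0.330 for Atp2a1. In set 2, 4 of the 5 highest bins were shared by the genotypes for both Ckm and Myh4, and 3 for Scn4a. In set 1 the number was 1 for Ckm, 2 for Scn4a and, depending on how bins with equal reads are ordered, 0 to 2 for Myh4. The depth of set 1, at which 47 to 81 bins of each of these genes were at 0, limits these values there.

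The ratio of Psat1KO to CTRL, taken within a set, was above 1 in both sets for Atp2a1 and Scn4a. Atp2a1 had a ratio of 1.39 in set 1 (95% counting interval 1.01 to 1.94) and of 1.17 in set 2 (0.939 to 1.48), and was above 41 and 38 of the other 46 DOWN genes. Scn4a had 1.09 (0.852 to 1.39) and 1.12 (0.917 to 1.36). A level higher in Psat1KO in both sets was thus seen in 2 of the 4 genes, and in 26.4% of the DOWN genes (28.3% over the shared stretch, where the same 2 genes were higher). With 1 library of a genotype in each set, these ratios have no replicate check of their own.

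Ckm had opposite directions, 0.741 (0.460 to 1.19) in set 1 and 1.16 (0.930 to 1.44) in set 2. In set 1 it had 38 reads in either library, so that its ratio equals the ratio of the library depths, and only 1 of the 46 other genes had a lower one. Within set 1 the ratio of Ckm was lowest in its last 20 bins, with 17 reads in CTRL and 7 in Psat1KO (ratio 0.305, interval 0.107 to 0.774). Its bins 21 to 81 had a ratio of 1.25. In the last 20 bins of set 2 the ratio was 1.79 (1.04 to 3.02). By the match over the DOWN genes these bins appear to cover another place. Ckm itself followed that match weakly (correlation 0.0549 against 0.0303 for equal bin numbers).

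Myh4 had ratios of 1.05 (0.758 to 1.45) in set 1 and 0.931 (0.736 to 1.17) in set 2. Within set 2 it was lowest in the first 20 bins, where the ratio was 0.683 (0.492 to 0.956) and lower in 3 of the 46 other genes. In bins 21 to 81 of set 2 the ratio for Myh4 was 1.32 (0.877 to 2.04), an interval that includes 1. In the first 20 bins of set 1 it was 0.958, but by the match these bins reach only to bin 8.6 of set 2.

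**Figure D5:**
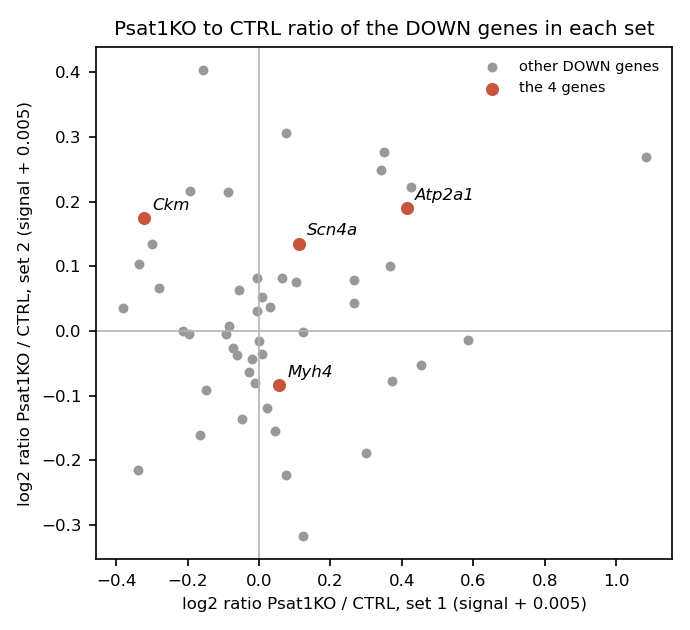
Ratio of Psat1KO to CTRL within set 1 and within set 2 for the 4 genes, beside the other DOWN genes, on a log2 scale. Values are Psat1KO minus CTRL of log2(level + 0.005), so they differ from the log2 of the plain ratios in the text. Atp2a1 (0.413 and 0.190) and Scn4a (0.111 and 0.135) lie above 0 in both sets, and Ckm (-0.321 and 0.174) and Myh4 (0.0552 and -0.0839) change side.

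No difference between the genotypes passed the test in the fit over all libraries. With limma on log2(level + 0.005), 2 against 2 libraries and Benjamini-Hochberg adjustment over 273 genes, 0 genes (0%) were called at an adjusted p under 0.05, and 8 had an unadjusted p under 0.05. The difference of Atp2a1, Psat1KO minus CTRL, was 0.30 on this log2 scale (SE 0.23, 95% interval -0.34 to 0.94, adjusted p = 0.953 by limma). Its levels were 0.0236 ± 0.00381 in CTRL and 0.0306 ± 0.00856 in Psat1KO (SD, n = 2). Each SD is taken over 1 library of each set, so it may also carry the difference in binning. Over the shared stretch the levels of Atp2a1 were 0.0257 ± 0.000811 in CTRL and 0.0321 ± 0.00635 in Psat1KO. Scn4a differed by 0.12 (SE 0.37, interval -0.94 to 1.19), Myh4 by -0.01 (SE 0.24, -0.70 to 0.67) and Ckm by -0.07 (SE 0.35, -1.07 to 0.92), each with an adjusted p of 1 by limma. In this fit, which has no term for the set, the intervals of Ckm, Myh4 and Scn4a take in a 1.5-fold change in either direction. With a replicate block, which takes equal library numbers as pairs, they were narrower. They ran from -0.66 to 0.52 for Ckm, -0.33 to 0.30 for Myh4 and -0.16 to 0.40 for Scn4a. The labels do not state such pairs, and neither fit shows that the genes were alike in the genotypes. With bin medians in place of means the difference was 1.46 for Atp2a1 and 1.48 for Scn4a (adjusted p = 1 each by limma), since their median bin in set 1 was 0 in CTRL and above 0 in Psat1KO. Leaving out 1 library turned the sign of 3 of the 4 differences. Such fits leave the genotypes unbalanced over the sets and have no term for the set. Their differences therefore also carry the difference in level between the sets. Ckm was at 0.11 without CTRL of set 2 and 0.36 without Psat1KO of set 1. Myh4 was at 0.16 without CTRL of set 1 and 0.23 without Psat1KO of set 2. Scn4a was at -0.24 without CTRL of set 2 and -0.22 without Psat1KO of set 1. Within the sets, the ratio of Psat1KO to CTRL for Scn4a was 1.09 in set 1 and 1.12 in set 2.

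In the shared stretch the picture between genotypes was alike. The Psat1KO levels of Atp2a1, 0.0366 and 0.0276, lay above both CTRL levels, 0.0262 and 0.0251, and it was the 1 gene of the 4 whose groups did not overlap. This held for 22.6% of the DOWN genes, so 1 of 4 is near the background. The limma difference of Atp2a1 was 0.26 (SE 0.16, adjusted p = 0.904). Scn4a differed by 0.17 (adjusted p = 0.935 by limma) and Myh4 by -0.09 (adjusted p = 0.948), while Ckm was at -0.02, and again 0 genes were called, with 12 at an unadjusted p under 0.05.

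Few genes of 3 lists for these functions had profiles. Of 35 genes listed for the sarcomere only Myh4 had one, and of 38 for excitation and calcium handling only Atp2a1 and Scn4a. Of 20 genes for energy supply, Ckm was joined by Ampd1, the AMP deaminase of muscle, and Cox8b, a subunit of cytochrome c oxidase. All 6 were DOWN genes and 0 passed the test in either direction (limma). The lists do not hold every gene of these functions. Tmod1, which caps thin filaments, Stac2, of the family of excitation-contraction coupling proteins, and Cpt1b and Fabp3, of fatty acid use, were also DOWN genes and were singled out after their values were seen. Their limma differences were 0.32 for Tmod1 and 0.19 for Cpt1b (adjusted p = 0.953 each), and 0.09 for Fabp3 and 0.04 for Stac2 (adjusted p = 1 each). Ampd1 stood at 0.0241 in CTRL and 0.0237 in Psat1KO of set 1 and at 0.0288 and 0.0278 in set 2. Cox8b stood at 0.0206, 0.0334, 0.0176 and 0.0174, so its ratio of 1.62 in set 1 was not seen in set 2 (0.987).

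Among the other DOWN genes, the level pattern nearest to Scn4a over the 4 libraries was that of Pax7, at a distance of 0.323 on the log2 scale. Pax7 stood at 0.0464 in CTRL and 0.0447 in Psat1KO of set 1, and at 0.0322 and 0.0288 in set 2. The next to Scn4a was Cdsn (0.530). Nearest to Atp2a1 were Bend6 (0.227) and Myh4 (0.335), nearest to Myh4 were Nnt (0.227) and Disp2 (0.260), and nearest to Ckm were Tnfrsf1b (0.241) and 2310002L09Rik (0.503). These distances rest on 4 libraries and on all bins, and so carry the difference in binning between the sets.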

How the data were processed

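Per the labels' protocols, sheared genomic DNA was enriched for 5hmC by immunoprecipitation, and a low-input kit gave the sequencing libraries. The submitters' processing notes name Trim Galore 0.6.7, Bowtie 1.3.1, MACS 1.4.2 and mm10, without roles. The authors deposited a coverage signal per gene in equal numbers of bins as 2 tables. Its tool, window and scaling were not given in the sources used here. Libraries were assigned by the genotype of their block and the number of their table. The 4 genes and all lists were chosen with earlier results of these data known. Levels were means over bins. Genotypes were compared with limma 3.58.1 (R 4.3.3) on log2(level + 0.005) over 273 genes, with Benjamini-Hochberg adjustment, tested on simulated data. A permutation test of 2 against 2 libraries cannot go below p = 0.333 (two-sided, exact), so none is given. Matching the bins of the sets was chosen after seeing the data. Named genes were the 4, the 2 DOWN genes nearest in level to each, and members of 3 lists of muscle genes. Tmod1, Stac2, Cpt1b and Fabp3 were named outside these rules, after their values were seen. Markers of myogenic (3 of 6), fibroadipogenic (3 of 4), endothelial (2 of 3) and immune cells (0 of 1) had profiles but do not measure RNA. Equal library numbers are not stated to pair samples. Alternatives were other pseudocounts, filters, bin summaries, stretches, a replicate block and leaving out each library. The 4 input libraries were not analysed here.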

Additional observations from a re-analysis of the deposited data

How the results depend on the processing

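Under all 15 alternatives to the main setting, limma called 0 of 273 genes. The adjusted p over these alternatives ranged from 0.720 to 1 for Atp2a1, 0.85 to 1 for Ckm, 0.840 to 1 for Myh4 and 0.723 to 1 for Scn4a. With the replicate block, which takes equal library numbers as pairs, the adjusted p was 0.720 for Atp2a1, 0.917 for Ckm, 0.986 for Myh4 and 0.723 for Scn4a, and it changed no call. The deviations of same-numbered libraries correlated at 0.369 over all genes, 0.731 over the DOWN genes and 0.221 over the UP genes. Same-numbered libraries also share a set, and the DOWN genes do not appear to be binned alike in the sets. These correlations cannot tell pairing from that difference in binning, and with 2 pairs they cannot settle the pairing. Leaving out each library moved the log2 difference between 0.05 and 0.55 for Atp2a1, -0.50 and 0.36 for Ckm, -0.26 and 0.23 for Myh4, and -0.24 and 0.48 for Scn4a. These fits have no term for the set, so the moves also carry the difference in level between the sets. With bin medians in place of means Ckm turned to 0.0089. Its median bin was 0 in both libraries of set 1, and 0.0141 in CTRL and 0.0143 in Psat1KO of set 2. With medians Myh4 was at -0.05. Atp2a1 and Scn4a went to 1.46 and 1.48, where a median bin of 0 in CTRL of set 1 sets the size. Of 40 alternative ratios within a set, 38 stayed within their counting interval, and 2 moved when only bins 21 to 81 were used, to 1.25 for Ckm in set 1 and 1.32 for Myh4 in set 2. Of 12 alternative mean ranks, 2 moved by more than the SD of the rank over the libraries. Atp2a1 went from 18 to 6 with bin medians, and Myh4 from 20.25 to 13 in the shared stretch. Genes with equal medians were all given the best rank among them. In set 1 the median bin was 0 for all 4 genes in CTRL and for Ckm and Myh4 in Psat1KO. Ranks with bin medians therefore carry these ties. The mean rank of Ckm went from 29.5 to 47.5 in the shared stretch and to 15.5 with bin medians, within its own wide SD. That SD comes from ranks of 41 and 49 in set 1 and of 16 and 12 in set 2, so it carries the difference between the sets. Staying within it does not show that the rank of Ckm held. The median-bin ratio in set 1 gave no value, since the CTRL median bin was 0. The read counts of set 1 limit what can be seen in single bins there.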
